A study of Mus musculus with 6 samples.

Results

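The insulin receptor, the closely related IGF-1 receptor and the proteins that carry their signal into the cell were examined in mouse liver whose hepatocytes carry a deletion in the insulin receptor gene. The 10 genes are *Insr*, *Igf1r*, *Irs1*, *Irs2*, *Pik3r1*, *Pik3ca*, *Akt1*, *Akt2*, *Grb10* and *Ptpn1*, and every probe set that the platform annotation gives to 1 of these symbols alone was kept. All 10 were on the array, read by 13 of 12422 probe sets, with 3 for *Grb10*, 2 for *Pik3ca* and 1 for each of the others. No probe set was annotated to a member together with another gene. The rule that picks the probe sets uses gene names alone.

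RNA came from livers of male mice, aged between 2 and 3 months, that ate chow freely and were not fasted. Both groups carried loxP sites in both copies of *Insr* (genotype IR flox/flox). Flox controls lacked Cre recombinase (albumin:CRE -), and their LIRKO littermates, for Liver Insulin Receptor Knockout, carried it (albumin:CRE +). The albumin promoter drives Cre in hepatocytes, so that endothelial cells, Kupffer cells and stellate cells of the same liver keep the gene. There were 3 Flox and 3 LIRKO arrays (Affymetrix MG-U74A-v2), each with RNA pooled from 2 to 3 mice of mixed strain background, so that the spread between arrays is one between pools. Values are log2 levels that the authors computed by robust multichip averaging (RMA), and a difference of 1 is a doubling.

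Insulin binds its receptor, a tyrosine kinase, which then phosphorylates the insulin receptor substrates IRS1 and IRS2. These dock PI 3-kinase, built of a regulatory subunit (*Pik3r1*) and a catalytic one (*Pik3ca*), whose lipid product brings the kinases AKT1 and AKT2 to the membrane to be activated. In liver, AKT keeps the transcription factor FoxO1 out of the nucleus, and FoxO1 is known to raise transcription of *Irs2* and *Insr* when insulin is low. GRB10 and the phosphatase PTP1B (*Ptpn1*) act as brakes at the receptor.

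The arrays LIRKO 2 and LIRKO 3 stood apart from the other 4 in a way that touches every value below. When all probe sets were divided into 10 equal groups by mean Flox level, the median difference from Flox ran from 0.23 in the dimmest group to -1.09 in the brightest on LIRKO 2, and from 0.15 to -0.89 on LIRKO 3, on the log2 scale. On LIRKO 1 it lay between -0.03 and 0.00 in every group. Each LIRKO array is therefore given separately for the 10 genes, and differences on LIRKO 2 and LIRKO 3 are set beside the median of the probe sets of like Flox level, meaning those of its own group of the 10, on the same array. For the other signalling genes named, the difference after cyclic loess, a normalization that evens out shifts with level, is given.

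None of the 13 probe sets passed an adjusted p of 0.05 from limma in LIRKO against Flox, where 0.129% of all probe sets passed. At an unadjusted p under 0.05, 2 were higher (*Igf1r* and *Irs2*), where 7.43% of all probe sets were, and 2 were lower (*Pik3r1* and *Akt2*), where 13.5% were. The t-test of the methods passed 0% of all probe sets after adjustment, so that it could not separate the members from the rest, and before adjustment it passed 2 of the 13 and 5.86% of all. The median log2 difference of the 13 was 0.02, beside 0.01 for all probe sets, with a range of -1.19 to 0.51. The 3 LIRKO arrays lay entirely above the 3 Flox arrays for 1 member probe set, against 9.84% of all probe sets, and entirely below for 2, against 14.9%. On LIRKO 1 alone none of the 13 passed, where 0.725% of all did, and 2 had an unadjusted p under 0.05, as 9.68% of all did. Without LIRKO 1, 5 passed as higher (22.4% of all probe sets did) and 4 as lower (26.7% of all), 9 in total, in a fit in which 49.1% of all probe sets passed.

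**Figure D1:**
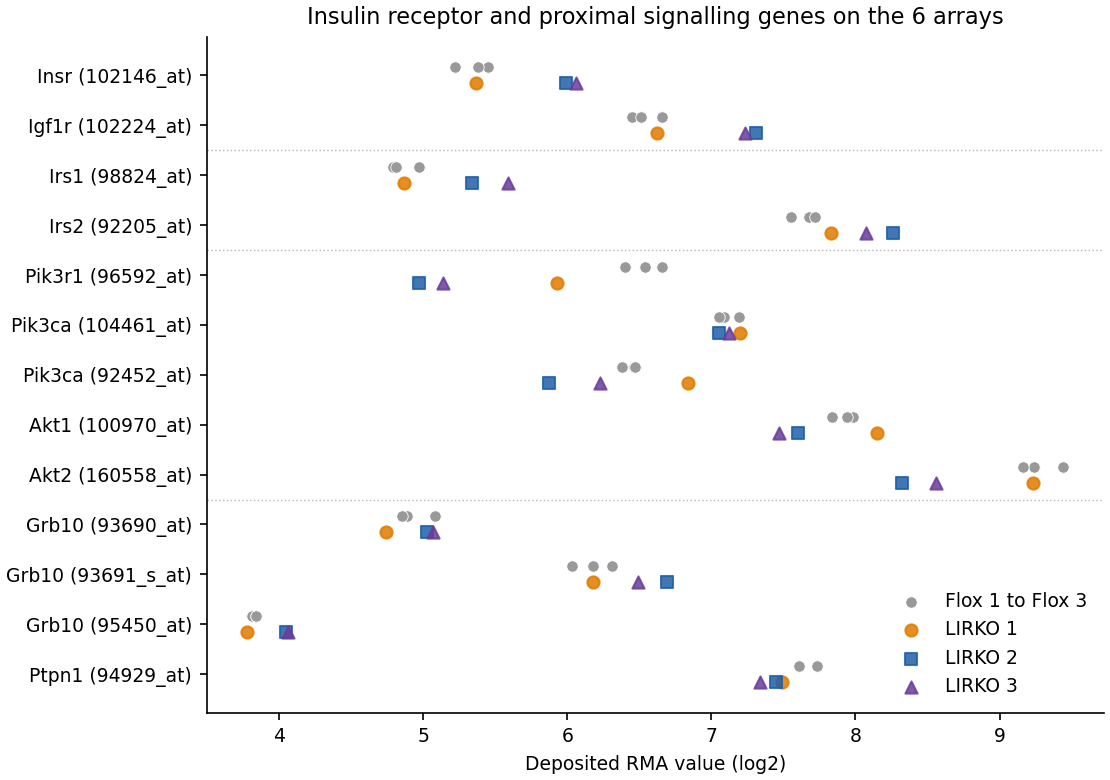
RMA values (log2, horizontal axis) of the 13 member probe sets on each array; grey circles are the 3 Flox arrays, orange circles LIRKO 1, blue squares LIRKO 2 and purple triangles LIRKO 3, and dotted lines divide receptors, substrates, PI 3-kinase with Akt, and brakes. The line of *Pik3r1* shows all LIRKO arrays to the left of Flox, at 5.93, 4.97 and 5.14 against 6.40 to 6.66, whereas for *Insr* and *Igf1r* LIRKO 1 lies among the Flox arrays.

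*Insr*, the gene whose floxed part Cre removes in hepatocytes, did not read lower in LIRKO than in Flox liver. Its probe set 102146_at read 5.45, 5.22 and 5.38 on Flox 1 to Flox 3 and 5.37, 5.99 and 6.06 on LIRKO 1 to LIRKO 3. LIRKO 1 thus lay inside the Flox range and the other 2 above it, so that the groups overlapped. The log2 difference was 0.46 (95% interval -0.02 to 0.94, adjusted p = 0.245 from limma), and on LIRKO 1 alone it was 0.02 (95% interval -0.29 to 0.32). The sources used here do not say which part of the transcript this probe set reads. A transcript that lacks only the floxed part could still be read, and the probe set therefore does not check the deletion. In a bulk sample of liver, a change in the share of a cell type and a change of RNA within its cells cannot be told apart.

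*Igf1r* encodes the receptor for IGF-1, which is close to the insulin receptor in structure, shares its substrates and is scarce on adult hepatocytes. Its probe set 102224_at read 6.45, 6.66 and 6.51 in Flox and 6.62, 7.31 and 7.23 in LIRKO. As for *Insr*, LIRKO 1 fell within the Flox range while LIRKO 2 and LIRKO 3 were above it. The log2 difference was 0.51 (95% interval 0.04 to 0.99, adjusted p = 0.237 from limma), or 1.43-fold, and 0.08 on LIRKO 1 alone (95% interval -0.22 to 0.38). On LIRKO 2 and LIRKO 3 the differences of 0.77 and 0.69 were larger than the medians of 0.11 and 0.08 at like level, at percentiles 90.3 and 89.9 of that group. The same comparison for *Insr* gave 0.64 and 0.71 beside 0.18 and 0.12, at percentiles 84.6 and 90.6. After cyclic loess normalization between the arrays, the log2 differences were 0.38 for *Insr* and 0.51 for *Igf1r*, with an adjusted p = 0.237 and an adjusted p = 0.212 from limma. Without LIRKO 1 both passed as higher, at 0.68 and 0.73, in a fit in which 22.4% of all probe sets passed as higher.

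Signals of the 6 hepatocyte marker genes were among the brightest on the Flox arrays, at percentile 97.5 or above. Their linear signals summed to 65834 to 70433 in Flox, 70815 on LIRKO 1, 42685 on LIRKO 2 and 41807 on LIRKO 3, so that the sum was low on the arrays on which bright probe sets in general were low. For stellate cells the markers were *Des*, *Col1a1*, *Col3a1* and *Reln*, with 8 probe sets. Their linear signals summed to 1187 to 1432 in Flox and to 1329, 3255 and 2579 on the LIRKO arrays in order. The largest log2 difference among them was 1.97, on 161231_r_at of *Reln*, with -0.03 on LIRKO 1. The other probe set of *Reln* had 0.49, and *Des* had 0.45. *Col1a1* had 0.07 on 103709_at and -0.46 on 94305_at. *Col3a1* had -0.90 on 98331_at, and -0.04 and 0.13 on its others. The median of the 8 was 0.10, with medians of -0.06, 0.02 and 0.20 on the LIRKO arrays in order. The sum therefore does not stand for the list as a whole. For the muscle markers *Ckm*, *Myh4* and *Acta1* the summed linear signal was 289 to 338 in Flox, 384 on LIRKO 1, 841 on LIRKO 2 and 538 on LIRKO 3. Here 161545_r_at of *Myh4* had a log2 difference of 1.15, whereas 98488_at of *Myh4* had 0.26. The 2 probe sets of *Ckm* had 0.45 and 0.11, and *Acta1* had 0.73, with 0.86 on LIRKO 1. Kupffer cell markers summed to 1196 to 1916 in Flox and to 2026, 985 and 1431 on the LIRKO arrays, endothelial markers to 363 to 493 and to 463, 515 and 548. Cholangiocyte markers summed to 140 to 153 in Flox and 135 to 181 in LIRKO, and adipocyte markers to 114 to 121 and 121 to 130. No probe set of these lists passed the threshold, and the part of other cells in the receptor signals was not tested.

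The pattern of *Insr* over the 6 arrays was shared by many genes. The 3 probe sets most like it were those of *Ncan*, *Olfr15* and *Twf2*, with Pearson correlations of 0.998, 0.996 and 0.995 over 6 arrays. Of 10832 other probe sets with 1 gene symbol, 1051 correlated above 0.9 with it, so that likeness to *Insr* over so few arrays was common.

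*Irs1* and *Irs2* encode the main docking proteins of the receptor in liver. Their promoters are shown because both hold a core of the insulin response element, TGTTTTG, through which FoxO1 acts, close to an E-box, CACGTG. The sequences are RefSeq's (GRCm38.p6), 250 bases up to the transcription start, 5′ to 3′ on the gene's strand, with these motifs in capitals. *Igfbp1*, a FoxO1 target with a well-known insulin response element, is shown beside them, its core standing on the opposite strand as CAAAACA.

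Irs1, chr1:82291440-82291689, minus strand: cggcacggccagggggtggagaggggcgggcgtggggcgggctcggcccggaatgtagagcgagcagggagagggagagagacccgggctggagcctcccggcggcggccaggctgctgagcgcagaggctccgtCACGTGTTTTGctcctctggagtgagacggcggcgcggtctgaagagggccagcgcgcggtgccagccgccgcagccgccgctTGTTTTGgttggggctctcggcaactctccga
Irs2, chr8:11008930-11009179, minus strand: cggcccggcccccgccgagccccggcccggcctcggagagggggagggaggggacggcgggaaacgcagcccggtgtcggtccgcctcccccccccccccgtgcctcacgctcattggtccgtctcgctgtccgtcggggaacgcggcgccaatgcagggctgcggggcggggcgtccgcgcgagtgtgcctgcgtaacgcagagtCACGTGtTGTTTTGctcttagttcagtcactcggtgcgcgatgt
Igfbp1, chr11:7197537-7197786, plus strand: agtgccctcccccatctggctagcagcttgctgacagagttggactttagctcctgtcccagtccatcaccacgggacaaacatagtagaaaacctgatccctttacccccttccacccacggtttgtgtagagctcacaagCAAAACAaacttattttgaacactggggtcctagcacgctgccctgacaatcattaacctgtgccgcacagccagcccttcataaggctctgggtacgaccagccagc

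In *Irs1* the E-box starts 115 bases before the transcription start and overlaps the first TGTTTTG, which starts at 111 bases before it, and a second copy starts at 32 bases. In *Irs2* the E-box starts at 44 and TGTTTTG at 37 bases, with no overlap. Searched on both strands over 32851 start sites of all genes, TGTTTTG was found in 5.56% of such windows, CACGTG in 6.02% and both in 0.295%. *Insr* had no promoter window in the sequences used and was not searched. Of the other 9 members, at 15 start sites, *Irs1* and *Irs2* alone held the core and the E-box. *Akt1* alone held another FoxO sequence, TGTTTAC (3.17% of windows). A match is a description of letters and no measured site.

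*Irs2* was the only member whose LIRKO arrays all lay above its Flox arrays. Its probe set 92205_at read 7.55, 7.68 and 7.72 in Flox and 7.83, 8.26 and 8.07 in LIRKO. LIRKO 1 was close to the highest Flox array and LIRKO 2 farthest from it. The log2 difference was 0.40 (95% interval 0.06 to 0.74, adjusted p = 0.237 from limma), a 1.32-fold level. On LIRKO 1 alone it was 0.18 (95% interval -0.11 to 0.46, adjusted p = 0.765 from limma). Probe sets of like level had medians of -0.25 and -0.16 on LIRKO 2 and LIRKO 3, whereas *Irs2* lay 0.61 and 0.42 above Flox, at percentiles 90.6 and 85.7 of that group. Its difference was 0.52 after cyclic loess and 0.54 after renewed quantile normalization, and it passed with neither (adjusted p = 0.212 and adjusted p = 0.226 from limma).

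*Irs1* showed the pattern described for *Insr*, with LIRKO 1 apart from the other LIRKO arrays. Probe set 98824_at read 4.79, 4.97 and 4.81 in Flox, then 4.87 on LIRKO 1, 5.34 on LIRKO 2 and 5.59 on LIRKO 3. LIRKO 1 was within the Flox range, and the difference of 0.41 (95% interval -0.05 to 0.88, adjusted p = 0.254 from limma) came from the other 2 arrays. This is a dim probe set, at percentile 19.5 of Flox levels, where the median on LIRKO 2 and LIRKO 3 was itself 0.24 and 0.15 above Flox. *Irs1* stood at 0.49 and 0.74 there, at percentiles 73.8 and 91.7 of that group, and its difference was 0.32 after cyclic loess. The probe sets most like *Irs2* over the 6 arrays were those of *Mrps36*, *Akap8* and *Fxyd2*, with correlations of 0.995, 0.994 and 0.992, and 1296 of 10832 correlated with it above 0.9.

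**Figure D2:**
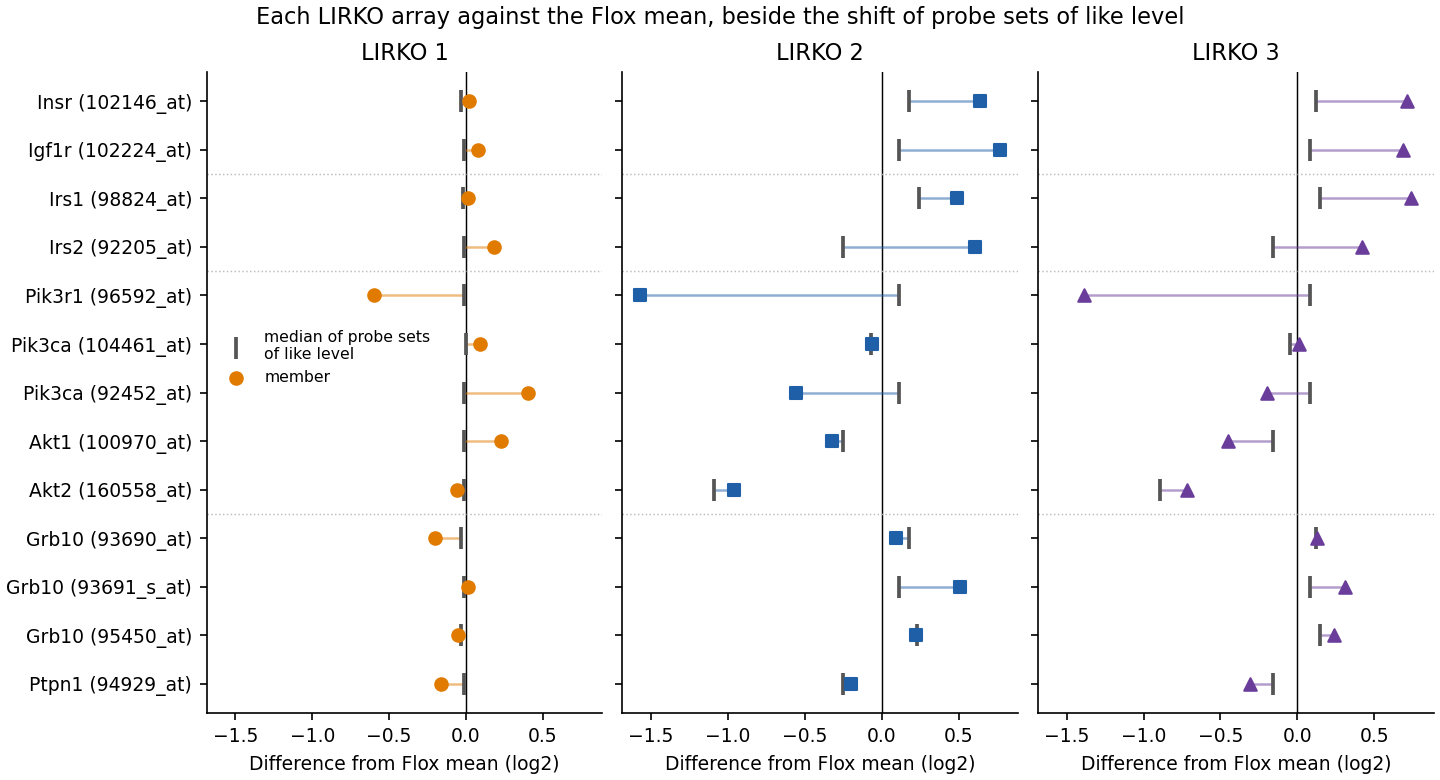
Each LIRKO array minus the Flox mean (log2, horizontal axis) for the 13 member probe sets; coloured symbols are members and grey ticks the median of all probe sets in the same group of 10 by Flox level on that array. *Pik3r1* lies left of its tick on all 3 arrays, at -0.60, -1.57 and -1.39, while *Akt2* on LIRKO 2 and LIRKO 3 lies near its ticks at -1.09 and -0.89.

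*Pik3r1* had the largest difference of the 13 member probe sets, and each LIRKO array was below each Flox array. The gene encodes p85α and, from other start sites, the shorter forms p55α and p50α. These regulatory subunits bind phosphorylated IRS proteins and both stabilize and restrain the catalytic subunit. Probe set 96592_at read 6.40, 6.54 and 6.66 on Flox 1 to Flox 3, and 5.93, 4.97 and 5.14 on LIRKO 1 to LIRKO 3. LIRKO 1 was nearer to Flox than the other 2. The log2 difference was -1.19 (standard error 0.25, 95% interval -1.79 to -0.58), a 2.28-fold lower level, with an adjusted p = 0.237 from limma. By unadjusted p (0.00245 from limma) it stood at rank 100 of 12422.

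The *Pik3r1* signal was low also where probe sets of like level were not. Those had medians of -0.01, 0.11 and 0.08 on LIRKO 1, LIRKO 2 and LIRKO 3, against -0.60, -1.57 and -1.39 for *Pik3r1*. Among the probe sets of like level it lay at percentile 0.322 on LIRKO 1, 0.402 on LIRKO 2 and 0.483 on LIRKO 3. On LIRKO 1 alone, with the spread taken from the Flox arrays, the 95% interval was -0.92 to -0.29 (adjusted p = 0.122 from limma), and it passed when Flox 1 was left out of that fit, in which 1 of the 13 member probe sets and 1.84% of all probe sets passed (adjusted p = 0.0261 from limma). Flox 1 had the lowest Flox reading, 6.40, the one nearest to LIRKO 1. In the other fits of LIRKO 1 alone *Pik3r1* did not pass, among them those without Flox 2 and without Flox 3. All these alternatives for LIRKO 1 alone were added after seeing the data. Over the 3 LIRKO arrays the difference was -1.25 after cyclic loess (adjusted p = 0.178 from limma) and also after renewed quantile normalization. Without LIRKO 1 it was -1.48 and passed, in a fit in which 26.7% of all probe sets passed as lower. Which of the gene's transcripts the probe set reads is not known here, and its 2 start sites in the promoter table held none of the 3 motifs.

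*Pik3ca*, the catalytic subunit p110α, was read by 2 probe sets that disagreed. On 104461_at all 6 arrays lay between 7.05 and 7.20, with a log2 difference of 0.02 (95% interval -0.25 to 0.28). LIRKO 2 and LIRKO 3 stood at -0.06 and 0.01 there, beside medians of -0.07 and -0.05 at like level. On 92452_at the Flox arrays read 6.38, 6.46 and 6.47 and the LIRKO arrays 6.84, 5.87 and 6.23. LIRKO 1 was above all Flox arrays and the other 2 below them, so that the mean difference of -0.12 (95% interval -0.69 to 0.45) hides opposite signs. On LIRKO 1 alone it was 0.40 (adjusted p = 0.247 from limma), at percentile 96.2 of the probe sets of like level. On the same probe set LIRKO 2 and LIRKO 3 stood at -0.56 and -0.20, beside medians of 0.11 and 0.08 at like level. The direction for this gene thus depended on the array and the probe set.

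*Akt2*, the main AKT of insulin action in liver, read 9.44, 9.24 and 9.16 in Flox and 9.23, 8.32 and 8.56 in LIRKO on probe set 160558_at. LIRKO 1 lay within the Flox range and LIRKO 2 and LIRKO 3 below it. The log2 difference was -0.58 (95% interval -1.15 to -0.01, adjusted p = 0.238 from limma). The Flox level is in the brightest of the 10 groups, whose medians on LIRKO 2 and LIRKO 3 were -1.09 and -0.89, and relative to these medians *Akt2* stood at 0.12 and 0.17. After cyclic loess the difference was -0.20. *Akt1*, the more widely expressed form, read 7.98, 7.94 and 7.84 in Flox and 8.15, 7.60 and 7.47 in LIRKO on probe set 100970_at. Its log2 difference was -0.18 over the 3 arrays (95% interval -0.63 to 0.27). On LIRKO 1 alone it was 0.23 (95% interval -0.05 to 0.51), so that its sign was not the same on all LIRKO arrays. On LIRKO 2 and LIRKO 3 *Akt1* stood at -0.32 and -0.45, beside medians of -0.25 and -0.16 at like level. After cyclic loess its difference over the 3 arrays was -0.06.

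**Figure D3:**
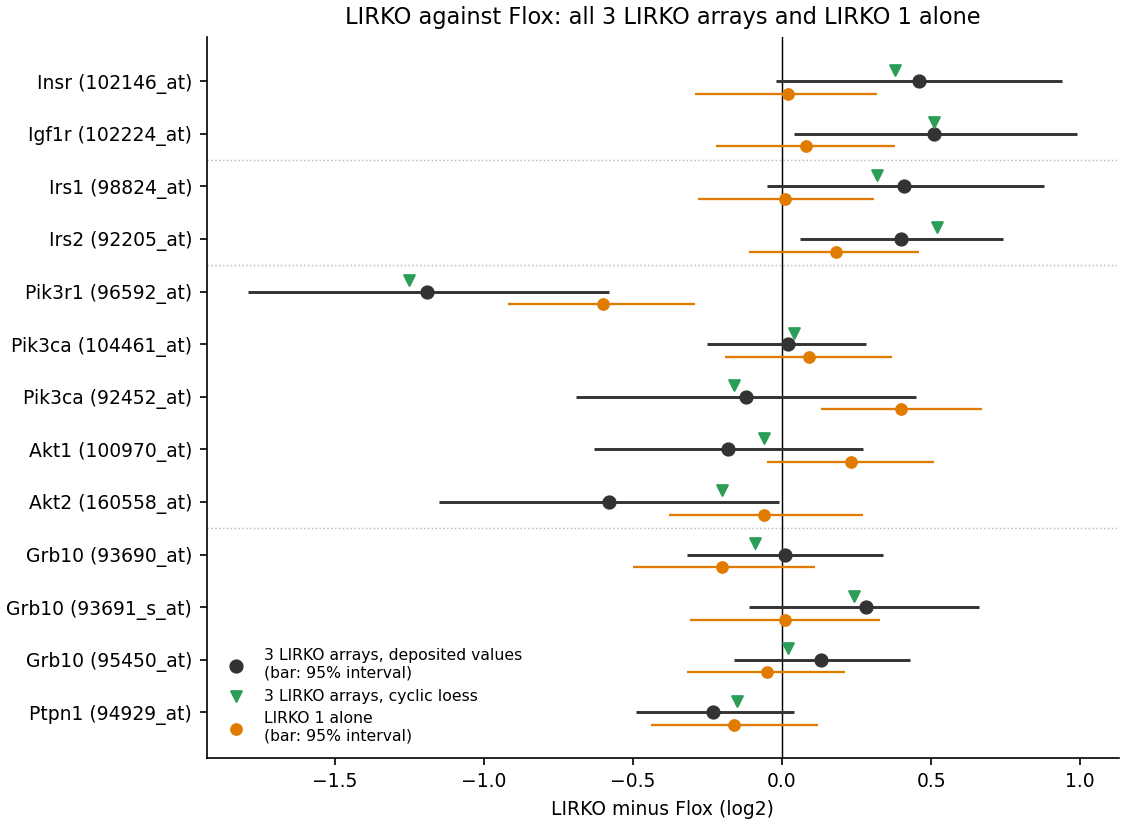
LIRKO minus Flox (log2, horizontal axis) for each member probe set; dark circles use all 3 LIRKO arrays and orange circles LIRKO 1 alone, each with its 95% interval from limma, and green triangles use all arrays after cyclic loess. The intervals of *Pik3r1* exclude 0 in both comparisons (-1.79 to -0.58 and -0.92 to -0.29), and those of *Insr* include 0 in both.

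The brakes at the receptor showed small differences. *Ptpn1* encodes PTP1B, which removes phosphate from the receptor. Its probe set 94929_at read 7.61, 7.73 and 7.61 in Flox and 7.49, 7.45 and 7.34 in LIRKO. All LIRKO arrays were below all Flox arrays, although by little. The log2 difference was -0.23 (95% interval -0.49 to 0.04, adjusted p = 0.264 from limma), with -0.16 on LIRKO 1 (95% interval -0.44 to 0.12), and probe sets of like level had medians of -0.25 and -0.16 on LIRKO 2 and LIRKO 3. *Grb10*, an imprinted gene whose adaptor protein binds and inhibits both receptors, had 3 probe sets. On 93691_s_at the Flox arrays read 6.03, 6.31 and 6.18 and the LIRKO arrays 6.18, 6.69 and 6.49, a log2 difference of 0.28 (95% interval -0.11 to 0.66, adjusted p = 0.318 from limma). LIRKO 2 and LIRKO 3 stood at 0.51 and 0.31 there, beside medians of 0.11 and 0.08 at like level. The others, 93690_at and 95450_at, were dim, at percentiles 20.7 and 7.95 of Flox levels, with differences of 0.01 and 0.13. LIRKO 2 and LIRKO 3 stood at 0.09 and 0.13 on 93690_at, beside medians of 0.18 and 0.12. On 95450_at they stood at 0.22 and 0.24, beside 0.23 and 0.15. On 93690_at the sign turned to -0.09 after cyclic loess, and on LIRKO 1 the 3 probe sets stood at -0.20, 0.01 and -0.05 in the order 93690_at, 93691_s_at and 95450_at.

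**Figure D4:**
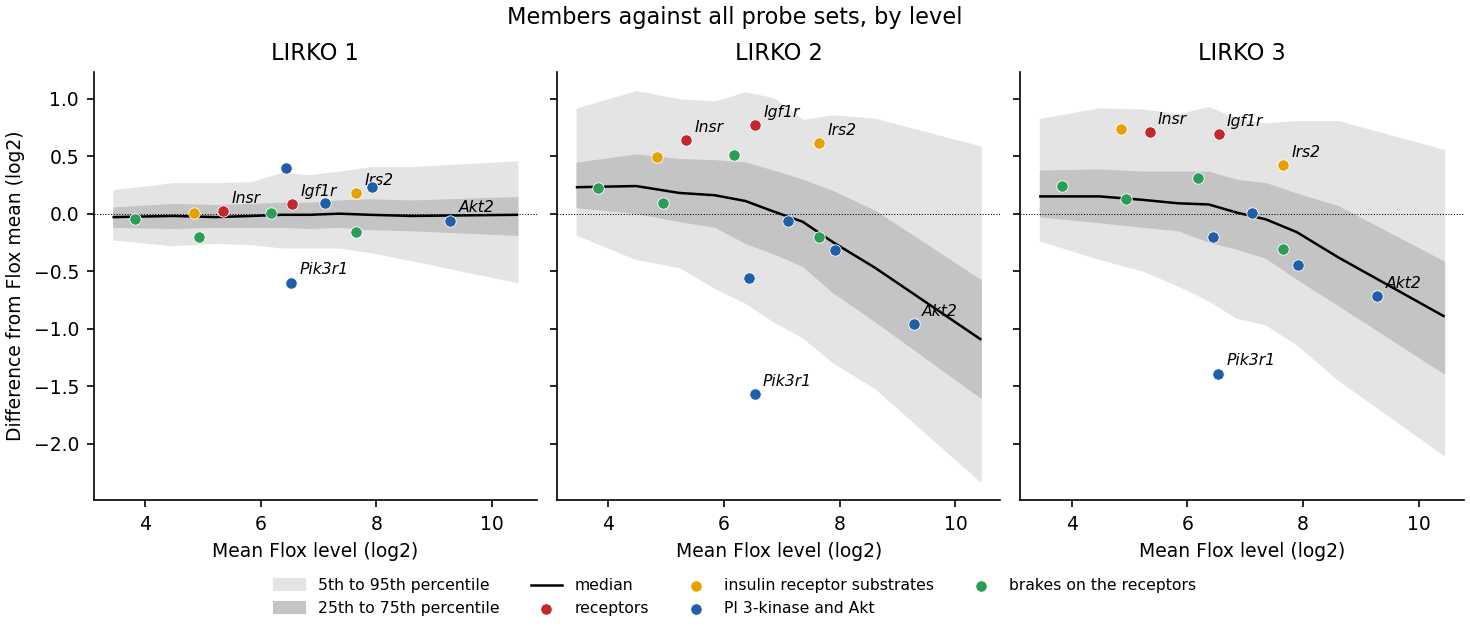
Difference from the Flox mean (log2, vertical axis) against mean Flox level (log2, horizontal axis) on each LIRKO array; grey bands hold the middle 50% and 90% of all probe sets in each of 10 groups by level, the line is their median, and coloured points are the members by role. The median line falls to -1.09 on LIRKO 2 and -0.89 on LIRKO 3 and stays near 0 on LIRKO 1, and *Pik3r1* lies below the bands on all 3 arrays.

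Other genes of insulin signalling were taken from 4 lists by role, with 39 of 53 genes measured by 59 probe sets. None passed in either direction in limma, where 0.129% of all probe sets passed, or in the t-test of the methods, which passed none on the array. At an unadjusted p under 0.05 limma passed 13 of the 59 (6 higher, 7 lower), beside 20.9% of all probe sets, and that t-test 3, beside 5.86% of all. Their median log2 difference was 0.02, beside 0.01 over all probe sets. Without LIRKO 1, 12 passed as higher and 14 as lower, beside 22.4% and 26.7% of all probe sets. The list of the receptor side, meaning ligands, related receptors and insulin clearance, had the lowest median, -0.34, and stood at -0.22, -0.15 and -0.52 on LIRKO 1, LIRKO 2 and LIRKO 3. After cyclic loess its median was -0.20. Its 13 probe sets were mixed, 5 higher and 8 lower, with a range of -1.91 to 0.77, and several genes had more than 1 of them. The medians of the adaptors, of PI 3-kinase with other kinases, and of the brakes were 0.05, 0.07 and 0.05.

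On the receptor side, *Igf1*, the hormone that hepatocytes release into blood, read 10.91, 10.92 and 10.99 in Flox and 10.43, 9.12 and 9.50 in LIRKO on probe set 95545_at. All LIRKO arrays were below Flox, with a log2 difference of -1.26 (adjusted p = 0.237 from limma) that was -0.51 on LIRKO 1 and -0.63 after cyclic loess. Its level lies in the brightest of the 10 groups, where it stood at -1.82 and -1.44 on LIRKO 2 and LIRKO 3 beside medians of -1.09 and -0.89. The other probe set of *Igf1*, in the same group, had -1.91, with -0.31 on LIRKO 1 and -1.26 after cyclic loess. *Ide*, the insulin-degrading enzyme, had a log2 difference of -1.05 on 160290_at (adjusted p = 0.237 from limma). On 94380_at it read 7.78, 7.45 and 7.54 in Flox and 7.37, 6.22 and 6.18 in LIRKO, also below on every array, while 162160_at had 0.47, so that the probe sets disagreed. On LIRKO 1 the 3 stood at -0.26, -0.22 and -0.18, and after cyclic loess at -1.05, -0.97 and 0.40.

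Among adaptors, *Sos2*, which activates Ras, had a log2 difference of 0.37 (adjusted p = 0.237 from limma), 0.42 on LIRKO 1 and 0.28 after cyclic loess. Its probe set is dim, at percentile 19.1 of Flox levels. On LIRKO 2 and LIRKO 3 it stood at 0.18 and 0.53, beside medians of 0.24 and 0.15 at like level. *Shc1*, which links the receptor to Ras, had -0.40 and -0.39 on its 2 probe sets, and -0.29 and -0.35 after cyclic loess. On LIRKO 1 they stood at -0.20 and 0.04, both within the Flox range. Of the kinase list, *Prkcz*, an atypical protein kinase C, had 0.50 on 161964_r_at, -0.33 on 96198_at and 0.10 on 96571_at, and the same signs after cyclic loess (0.75, -0.32 and 0.04). *Tsc1*, a brake on mTOR, had 0.80 on 162073_r_at, at percentile 0.692 of Flox levels, and 0.12 on its other probe set, with 0.68 and 0.14 after cyclic loess.

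Among the brakes, *Trib3*, a pseudokinase that binds AKT, read 7.14, 7.11 and 7.11 in Flox and 7.37, 7.61 and 7.58 in LIRKO. All 3 LIRKO arrays were above Flox, with a log2 difference of 0.40 (adjusted p = 0.237 from limma) and of 0.45 after cyclic loess. *Inpp5d*, a lipid phosphatase of blood cells, had 0.81 on 161678_at, 0.00 on LIRKO 1 and 0.82 after cyclic loess. Its other probe set had -0.36, and -0.38 after cyclic loess. *Ptprf*, a receptor phosphatase, had -0.60, with -0.01 on LIRKO 1 and -0.32 after cyclic loess.

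**Figure D5:**
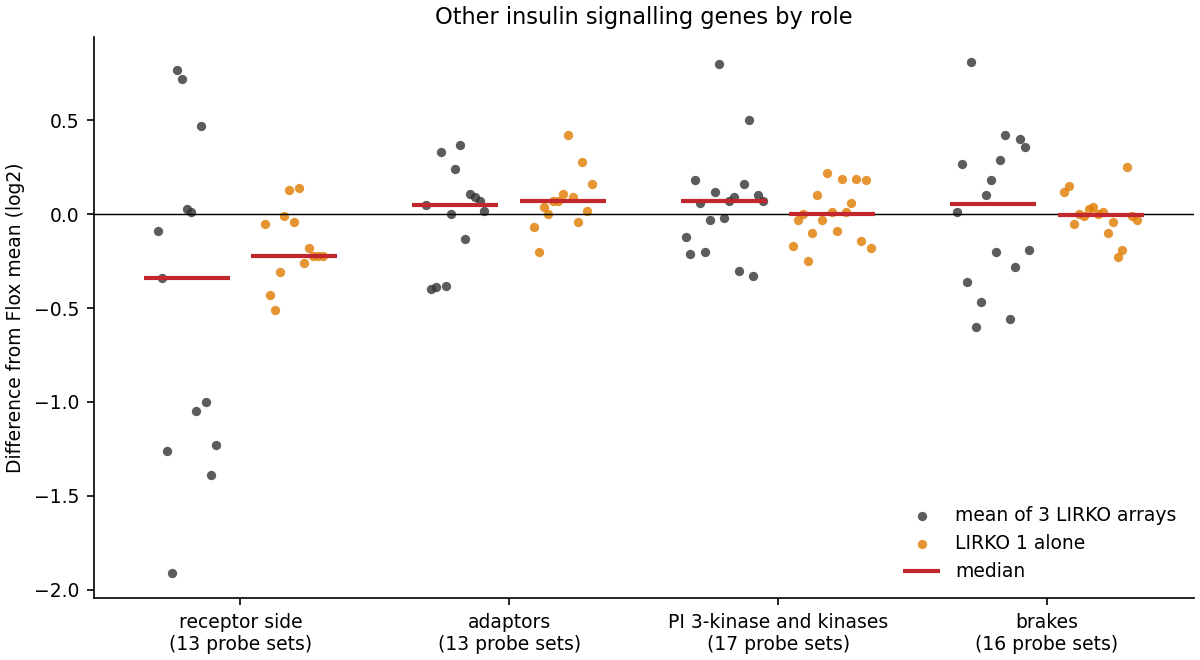
Difference from the Flox mean (log2, vertical axis) of 59 probe sets of other insulin signalling genes in 4 lists by role (horizontal axis); dark points are the mean of the 3 LIRKO arrays, orange points LIRKO 1 alone, and red bars medians. The receptor side has the lowest medians, -0.34 and -0.22, with means from -1.91 to 0.77, and the medians of the other lists lie near 0.

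The members can be set beside genes that insulin is known to control in liver. *Igfbp1*, whose promoter is shown above, read 9.35, 8.56 and 8.89 in Flox and 11.94, 11.63 and 11.43 in LIRKO on probe set 103896_f_at, and was higher by 2.74 on the log2 scale (adjusted p = 0.0257 from limma), with 3.01 on LIRKO 1 and 3.36 after cyclic loess. Its other probe set, 103897_r_at, had 0.21. *Srebf1*, which encodes SREBP-1 and which insulin induces, had -1.31 (adjusted p = 0.237 from limma) and -0.59 on LIRKO 1. Its level lies in the brightest of the 10 groups, with medians of -1.09 and -0.89 on LIRKO 2 and LIRKO 3, and its difference after cyclic loess was -0.71. *Pck1* and *G6pc*, gluconeogenic enzymes that insulin represses, had -0.09 and -0.68 (adjusted p = 0.845 and adjusted p = 0.346 from limma). On LIRKO 1 they stood at 0.60 and 0.36, and after cyclic loess both signs turned, to 0.58 and 0.11.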

How the data were processed

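Liver RNA of 3 Flox and 3 LIRKO pools was hybridized to Affymetrix MG-U74A-v2 chips, 1 chip a pool. The authors used the Bioconductor packages affy and limma and deposited log2 values, with background correction, normalization and a summary per probe set by RMA (version, and whether all 6 arrays were normalized together, not given in the sources used here). These were used without further scaling. From 12488 probe sets, 66 array controls were left out. The groups were compared with limma 3.58.1 in R 4.3.3 (lmFit and eBayes, default settings) over all 12422, with Benjamini-Hochberg adjustment at 0.05, as the microarray methods state, and LIRKO 1 was compared with Flox in the same way. Each pool was taken as 1 replicate. Promoter motifs were searched as exact letters in RefSeq windows. Members were found by the symbol in the platform annotation, and 10817 of 10833 probe sets with 1 symbol were found in the current gene table by Entrez ID. Named are all member probe sets, 4 insulin-regulated genes, the up to 3 probe sets of smallest p in each other list, and those most correlated with *Insr* and *Irs2*. Members and lists were chosen with earlier results of these data known. The analysis was tested on simulated data, and 13 alternatives were run, among them the unequal variance t-test that the statistics methods name (the t-test of the methods). Since each value comes from a pool, p-values measure the spread between pools, and the number of arrays limits the precision. Figures used Python 3.11.15 with matplotlib 3.10.9.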

Additional observations from a re-analysis of the deposited data

How the results depend on the processing

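With 3 arrays a group, 2 of them shifted with level, small changes of these genes could not be resolved. The count of 0 member probe sets past the threshold was unchanged by renewed quantile normalization, cyclic loess, leaving out dim probe sets (10 of 13 left) and another variance model. The t-test of the methods passed 0 of 12422 probe sets and so says nothing about stability. The count ran from 0 to 9 when 1 array was left out, with 9 only without LIRKO 1, and that of the other insulin signalling probe sets from 0 to 26, with 26 only without LIRKO 1, where 49.1% of all probe sets passed. For LIRKO 1 alone the count ran from 0 to 1, the 1 (*Pik3r1*) without Flox 1, where 1.84% of all passed; its alternatives were added after seeing the data. With the replicate number as a block (replicate block) 0 members and 11 of 12422 probe sets passed. Over all probe sets, Flox and LIRKO arrays that share a number had deviations from their group means with correlations of 0.321, 0.399 and 0.092. For arrays of unlike number these correlations ran from -0.369 to 0.166. The arrays were taken as unpaired because the microarray methods name no block, and whether the numbers mark a pairing is not known here.

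The sign of 5 member probe sets, none of which passed in the main comparison, turned under some settings. With LIRKO 1 alone it was 0.40 for *Pik3ca* 92452_at, 0.23 for *Akt1*, -0.20 for *Grb10* 93690_at and -0.05 for *Grb10* 95450_at. For *Grb10* 93690_at it was -0.09 after quantile normalization and -0.09 after cyclic loess. With 1 array left out, *Pik3ca* 104461_at ran from -0.02 to 0.05, *Pik3ca* 92452_at from -0.38 to 0.10 and *Grb10* 93690_at from -0.05 to 0.11. For *Insr*, *Igf1r*, *Irs1*, *Irs2*, *Pik3r1*, *Akt2*, *Ptpn1* and *Grb10* 93691_s_at the direction was the same under every alternative run. On LIRKO 1 alone, though, some of these differences were too small to give a direction. They were 0.02 for *Insr*, 0.08 for *Igf1r*, 0.01 for *Irs1*, -0.06 for *Akt2* and 0.01 for *Grb10* 93691_s_at. Those of *Irs2*, *Ptpn1* and *Pik3r1* were 0.18, -0.16 and -0.60. The other alternatives all used LIRKO 2, LIRKO 3 or both.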
